A study of Saccharomyces cerevisiae with 10 samples.

Results

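The transcript levels of budding yeast (Saccharomyces cerevisiae) carrying an eaf1 deletion were set against those of a strain with a tagged Eaf1, called Eaf1 1:982 after its label. The comparison used every array of these strains, 4 of the 10 arrays in the series, and covered all 6377 measured features, of which 5315 carried a gene name and 1062 did not. Each array received RNA of 1 strain in one dye and, in the other dye, RNA of a reference pool used throughout the series. Each strain had 2 arrays of opposite dye orientation, a with the strain in Cy3 and b with the strain in Cy5.

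The deletion strain is labelled eaf1-del in its strain and genotype fields, while its titles add a tag-HA element, and which of these is complete was not given. The control strain is labelled eaf1-ctrunc-1:982-tag-HA. Although this name reads as a C-terminal truncation, the EAF1 coding sequence of the R64 gene table holds 982 codons, so residues 1 to 982 span the whole protein and the strain carries an HA-tagged Eaf1 of full length by that count. The other strains of the series carried FLAG-tagged Epl1, either whole or cut after residue 380 or 485. All strains were harvested from multi-well plate cultures at mid-log phase. The labels name neither the parent strain nor the mating type, and give 1 construct per genotype. Whether arrays a and b stand for separate cultures is not stated, and p-values here cover only the array-to-array spread within strains, possibly a technical one.

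NuA4 is a multisubunit complex that acetylates histone H4 and H2A and also H2A.Z, through its catalytic subunit Esa1. Esa1, Epl1, Yng2 and Eaf6 form a smaller module, piccolo NuA4, which can act on nucleosomes by itself. Eaf1 is the subunit found in NuA4 alone, and it serves as the platform that joins piccolo, the activator-binding subunit Tra1 and the modules shared with other complexes. The comparison therefore addresses how transcript levels differ when the platform subunit is missing and the other subunits remain encoded.

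The 4 arrays were of similar quality. Median spot signals lay between 599 and 755 in Cy5 and between 278 and 415 in Cy3, while local backgrounds were 60.0 to 66.0 and 44.0 to 45.0. In the strain channel 97.3% to 98.7% of gene spots stood above background. All values below are log2 ratios of strain over pool, and differences are deletion minus Eaf1 1:982 on the log2 scale with the standard error (SE) of the limma fit, at 2 arrays per strain. A call required an adjusted p (Benjamini-Hochberg, over all features) under 0.05 together with a fold change over 1.7. Half-widths of the 95% confidence intervals had a median of 0.156. With 2 arrays against 2, an exact permutation test of a single value cannot give a two-sided p below 0.333. The calls therefore rest on the spread estimated by the fit. It combines each feature's own spread within the 5 strains with the spread across all features.

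The targeted gene had the lowest difference of all features. EAF1 stood at -2.00 and -2.14 on the deletion arrays and at 0.74 and 0.54 on the Eaf1 1:982 arrays. Both deletion arrays were far below both control arrays, which in turn lay above the pool. The difference was -2.71 ± 0.0893 (SE), a 6.53-fold decrease with an adjusted p of 7.24e-07. In raw signal the EAF1 spots gave 57.0 and 83.3 in the deletion against a local background of 45.0 and 59.5, and 439 and 739 in the control. The EAF1 probe signal thus matched the labels. Of the 9 measured genes nearest to EAF1 on its chromosome none was called, with differences from -0.63 for BCP1, a protein needed for nuclear export, to 0.36 for ESC2, a protein linked to silencing. Only 2.68% of all features were called, so no call among 9 genes says little.

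The genes for the remaining NuA4 subunits showed no called difference. Of 13 measured subunit genes EAF1 was the only one called, beside 2.68% of all features. The median difference of the list was -0.01. ESA1, the acetyltransferase, gave -0.19 and 0.02 in the deletion and -0.07 and -0.01 in the control, a difference of -0.05 ± 0.0776 (SE). TRA1, the activator-binding subunit, differed by 0.05 ± 0.103 (SE), YNG2, a piccolo subunit, by -0.01 ± 0.101 (SE), and EAF7 by -0.01 ± 0.0518 (SE). The arrays of the strains overlapped for each of these 4 genes. EAF3, a chromodomain subunit shared with a histone deacetylase complex, differed by -0.25 ± 0.0633 (SE; adjusted p = 0.0149), within the fold limit.

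EPL1, which encodes the piccolo scaffold, read 1.06 and 1.14 in the deletion and 0.60 and 0.58 in Eaf1 1:982. The strains did not overlap, as for 64.8% of all features, and both stood above the pool. The difference of 0.51 ± 0.0687 (SE; adjusted p = 0.000673) was under the fold limit, and it was -0.28 after quantile normalisation between arrays, so its direction depended on the scaling. Among complexes with related roles, none of 11 measured SWR1 and H2A.Z genes, 17 SAGA genes, 26 histone deacetylase genes or 10 histone genes was called. As 2.68% of all features were called, lists of this size would hold few calls or none in any case. BDF1, a bromodomain protein that binds acetylated histones, came closest at 0.76 ± 0.0703 (SE), a 1.70-fold difference just under the limit. SWC4, a subunit of both NuA4 and SWR1, differed by 0.33 ± 0.0565 (SE).

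Across the array, 171 of 6377 features were called, or 2.68%. Of these, 132 rose (2.07% of all features) and 39 fell (0.612%), so 77.2% of the calls were rises. Counts of calls in the gene lists below are to be read beside these shares. Among the calls, 80 rose and 10 fell more than 2-fold. The arrays of both strains did not overlap for any of the 171 called features, where 64.8% of all features showed such a separation. Without the fold limit 2145 features passed (33.6%), nearly evenly split into 1135 higher (17.8%) and 1010 lower (15.8%). The split of the calls depended on the scaling, with 97.6% of calls higher after centring on the added control RNA, which moved the median of all features from 0.01 to 0.28, and 59.7% after quantile normalisation. Against the pool, Eaf1 1:982 had 13 calls (0.204%), 10 higher (0.157%) and 3 lower (0.047%). The deletion had 234 calls against the pool (3.67%), 163 higher (2.56%) and 71 lower (1.11%).

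**Figure D1:**
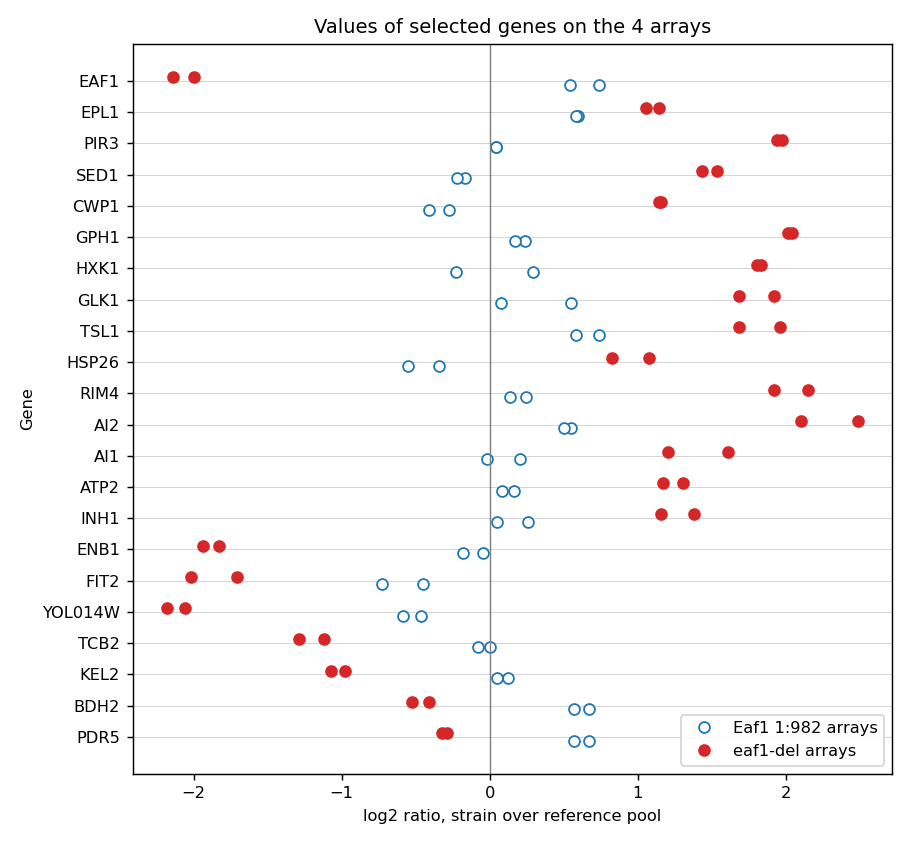
Log2 ratios of strain over reference pool (horizontal axis) for 22 genes described in the text, with filled red points for the 2 eaf1-del arrays and open blue points for the 2 Eaf1 1:982 arrays. The strains do not overlap for any gene shown, as for 64.8% of all features. All genes shown except EPL1 were called, and no call overlapped. EAF1 lies at -2.00 and -2.14 in the deletion.

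PIR3, a covalently bound wall glycoprotein, read 1.98 and 1.94 in the deletion and 0.05 and 0.05 in the control. Its difference of 1.91 ± 0.0625 (SE; adjusted p = 7.24e-07) was the largest rise, 3.77-fold, with close agreement of the arrays within each strain. Of 62 measured cell wall genes 8 rose and none fell, where 2.07% of all features rose and 0.612% fell, and the list median was 0.22 against 0.01 for all features.

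CWP1, a wall mannoprotein, read 1.15 and 1.16 in the deletion and -0.27 and -0.41 in the control, a rise of 1.49 ± 0.0999 (SE; adjusted p = 3.03e-05). SED1, a major wall protein of stationary-phase cells, read 1.54 and 1.43 against -0.16 and -0.22, a rise of 1.68 with a wider SE of 0.290 (adjusted p = 0.00241), and its spot passed 32768 on 2 arrays. YGP1, a secreted glycoprotein induced on nutrient limitation, rose by 1.42 ± 0.0867 (SE), and HSP150, a relative of PIR3, by 1.33 ± 0.143 (SE). PIR1, of the same family, did not pass the fold limit at 0.49 ± 0.150 (SE), its deletion arrays lying apart at 0.83 and 0.31.

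In trehalose and glycogen metabolism, 7 of 20 measured genes rose, where 2.07% of all features did, and none fell, with a median of 0.41. GPH1, glycogen phosphorylase, read 2.05 and 2.01 in the deletion and 0.24 and 0.17 in Eaf1 1:982, a rise of 1.83 ± 0.105 (SE; adjusted p = 1.81e-05). TSL1, a subunit of trehalose synthase, read 1.96 and 1.68 against 0.74 and 0.58 and rose by 1.16 ± 0.126 (SE). The deletion arrays of both genes lay well above the control arrays, although TSL1 also stood above the pool in the control. PGM2, phosphoglucomutase, rose by 1.08 ± 0.0952 (SE), and TPS1, the catalytic subunit of trehalose synthase, by 0.98 ± 0.0921 (SE). The calls of TSL1, PGM2 and TPS1 were lost after quantile normalisation, and that of GPH1 was not.

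HXK1, a hexokinase repressed by glucose, read 1.81 and 1.84 in the deletion and 0.29 and -0.23 in the control, a rise of 1.79 ± 0.210 (SE; adjusted p = 0.000333). GLK1, glucokinase, read 1.92 and 1.69 against 0.55 and 0.08, a rise of 1.49 ± 0.144 (SE). The spread lay on the control side, where array a read above array b for both genes. The frame YCL042W gave 1.64 ± 0.144 (SE), but it overlaps GLK1 in the R64 gene table and its signal cannot be told apart from that of GLK1. MTH1, a negative regulator of glucose sensing, rose by 1.03 ± 0.0762 (SE), so that 3 of 24 hexose kinase and transporter genes were called, while none of 21 glycolytic enzyme genes was. Over all features 2.68% were called.

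These genes overlap with the targets of Msn2 and Msn4, the transcription factors of the general stress response. Of 72 measured targets 23 rose and 1 fell, where 2.07% of all features rose and 0.612% fell. By the adjusted p alone 46 were higher and 1 lower, against 17.8% and 15.8% of all features. Their median difference was 0.48, and it was 0.20 after quantile normalisation. ALD3, a cytosolic aldehyde dehydrogenase, read 1.93 and 2.14 in the deletion and 0.66 and 0.41 in the control, a rise of 1.50 ± 0.114 (SE; adjusted p = 4.34e-05), a call lost after quantile normalisation. The target that fell was DDR48, a stress protein, at -0.60 and -0.55 against 0.32 and 0.08, a decrease of 0.77 on the log2 scale that lies close to the fold limit of 0.766. The call of DDR48 was lost without deletion array a or control array a, from the print-tip loess intensities and after control RNA centring.

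Among 31 measured chaperone and heat shock genes 4 rose and none fell, where 2.07% of all features rose and 0.612% fell. One of these calls is HSP150, the relative of PIR3 given above among the cell wall genes. By the adjusted p alone 13 were higher and 1 lower, against 17.8% and 15.8% of all features. HSP26, a small heat shock protein, read 0.83 and 1.08 in the deletion and -0.55 and -0.34 in the control, a rise of 1.40 ± 0.144 (SE; adjusted p = 0.000166). HSP42, the other small heat shock protein of the cytosol, rose by 1.31 ± 0.111 (SE), and HSP31, a chaperone of the DJ-1 family, by 1.26 ± 0.175 (SE). The control arrays stood below the pool for HSP26 and HSP31, so part of the difference of these genes lies in the level of the control strain.

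**Figure D2:**
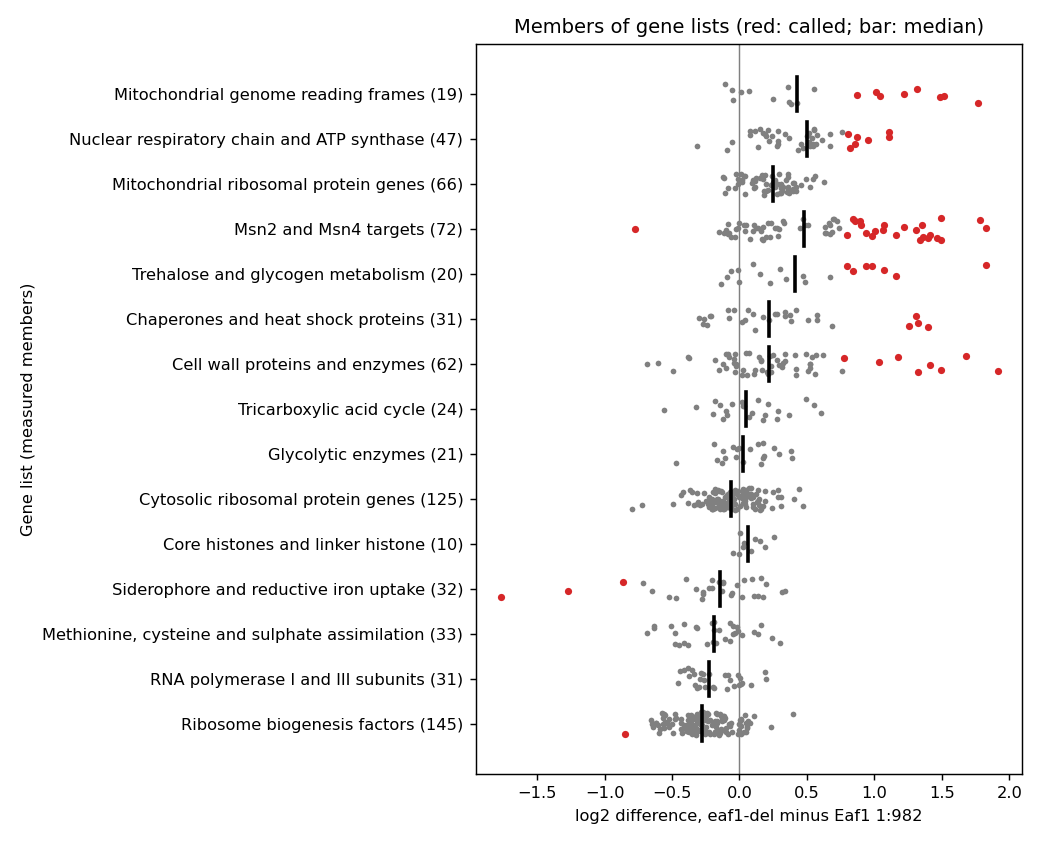
Log2 difference, eaf1-del minus Eaf1 1:982 (horizontal axis), for the members of 15 gene lists, 1 point per gene, with called genes in red, the list median as a black bar and the number of measured members in parentheses. The medians run from -0.28 for ribosome biogenesis factors to 0.50 for nuclear respiratory genes.

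Among genes of mitochondrial respiration 7 of 47 nuclear genes and 8 of 19 mitochondrial frames rose, and none fell. Of all features 2.07% rose and 0.612% fell. Most of the called mitochondrial frames lie within introns of 1 gene, COX1. Yeast respiratory complexes are built from a few subunits encoded in mitochondrial DNA and many encoded in the nucleus, and their nuclear genes respond to the Hap activator, of which HAP4 encodes the regulated subunit. HAP4, taken after its value was seen, rose by 0.80 ± 0.0709 (SE; adjusted p = 8.48e-05). For the nuclear genes of the respiratory chain and ATP synthase the median was 0.50, 44 of 47 differences were positive, and 35 were higher by the adjusted p alone, against 17.8% of all features. The list median read 0.51 and 0.57 on the deletion arrays and 0.09 and 0.10 on the control arrays. After quantile normalisation the median was 0.23.

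ATP2, the beta subunit of the ATP synthase, read 1.17 and 1.31 in the deletion and 0.17 and 0.09 in Eaf1 1:982, a rise of 1.11 ± 0.0844 (SE; adjusted p = 4.34e-05). INH1, the inhibitor of ATP hydrolysis by the same enzyme, read 1.16 and 1.38 against 0.26 and 0.05 and rose by 1.11 ± 0.0954 (SE; adjusted p = 7.41e-05). COR1 and RIP1, subunits of complex III, rose by 0.95 ± 0.0870 (SE) and 0.87 ± 0.0837 (SE). The strains did not overlap for any of these 4 genes, as for every call, but none of the 4 was called after quantile normalisation.

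The 19 reading frames of the mitochondrial genome had a median of 0.43. By the adjusted p alone 13 were higher and none lower, against 17.8% and 15.8% of all features. The highest values belonged to frames within the introns of COX1, the gene of a core subunit of cytochrome oxidase. These frames encode maturases and endonucleases, and as they lie in 1 gene they are not independent. The called ones were AI1, AI2, AI3, AI4, AI5_ALPHA and AI5_BETA. The other called frames had uneven deletion arrays, ATP8 at 0.66 and 1.30 and OLI1 at 0.48 and 1.18. AI2 read 2.10 and 2.49 in the deletion and 0.55 and 0.50 in the control, a rise of 1.77 ± 0.119 (SE; adjusted p = 3.03e-05). AI1 read 1.20 and 1.61 against -0.01 and 0.20, a rise of 1.31 ± 0.131 (SE; adjusted p = 0.000150).

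AI5_ALPHA rose by 1.52 ± 0.0820 (SE) and AI3 by 1.49 ± 0.0958 (SE). COX1 itself, taken for comparison after its value was seen, read 0.54 and 0.79 in the deletion and 0.28 and 0.28 in the control. Its difference of 0.38 ± 0.0834 (SE; adjusted p = 0.00759) was under the fold limit and smaller than that of each of the called intron frames. The calls of AI3 and AI5_ALPHA were lost after quantile normalisation, and the median of all 19 frames was then 0.11. No measurement here separates the amount of mitochondrial DNA from transcription or RNA stability.

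Of 66 nuclear genes for mitochondrial ribosomal proteins none was called. By the adjusted p alone 36 were higher and none lower, against 17.8% and 15.8% of all features, and the median was 0.25. RSM10, a small-subunit protein, differed by 0.56 ± 0.0823 (SE) and MRP2, another, by 0.63 ± 0.125 (SE). Among 24 tricarboxylic acid cycle genes none was called and the median was 0.05. MDH1, mitochondrial malate dehydrogenase, differed by 0.60 ± 0.0540 (SE), and IDH1, a subunit of isocitrate dehydrogenase, by -0.56 ± 0.0808 (SE), in opposite directions.

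**Figure D3:**
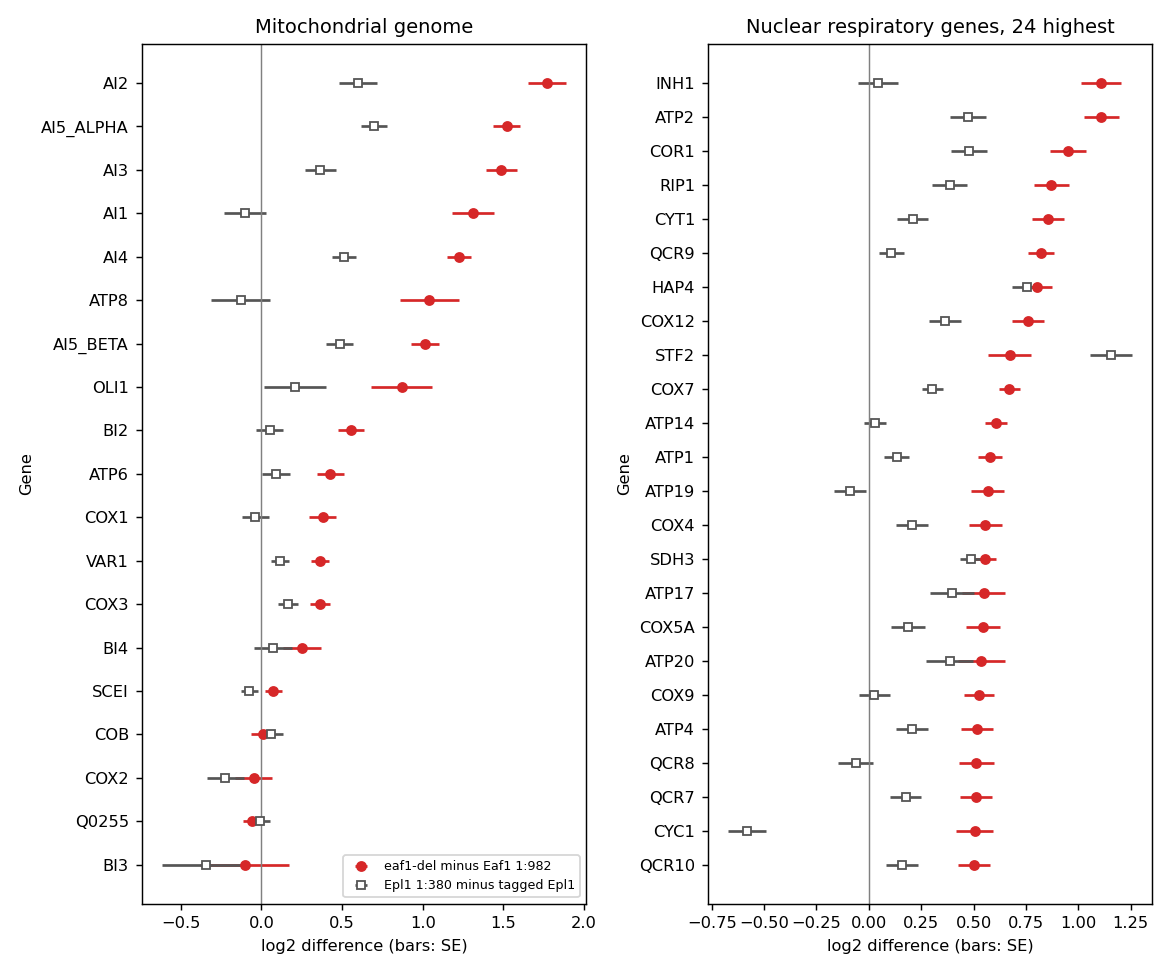
Log2 differences with SE bars (horizontal axis) for the 19 mitochondrial frames on the left and the 24 nuclear respiratory genes with the highest difference on the right, with red points for eaf1-del minus Eaf1 1:982 and open squares for Epl1 1:380 minus tagged Epl1. AI2 lies at 1.77 in the first comparison and at 0.60 in the second.

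ENB1, the transporter of the siderophore enterobactin, read -1.93 and -1.83 in the deletion and -0.05 and -0.18 in Eaf1 1:982. After EAF1 it had the lowest difference, -1.77 ± 0.119 (SE; adjusted p = 3.03e-05), a 3.41-fold decrease. FIT2, a wall mannoprotein that retains siderophore iron, read -1.71 and -2.02 against -0.45 and -0.73, and fell by 1.27 on the log2 scale with an SE of 0.305 (adjusted p = 0.0116). The strains did not overlap, as for every call, but the call of FIT2 was lost without deletion array b and without control array a.

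TIS11, an RNA-binding protein that destabilises transcripts of iron-using pathways in iron shortage, fell by 0.86 ± 0.158 (SE) on the log2 scale. These 3 genes were the only calls among 32 measured iron uptake genes, where 0.612% of all features fell. By the adjusted p alone 11 were lower and 2 higher, against 15.8% and 17.8% of all features, and the median was -0.14. The call of FIT2 was also lost after quantile normalisation, and that of TIS11 after control RNA centring. The control strain also stood below the pool for FIT2, and above it for TIS11 at 0.20 and 0.15.

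TCB2, a tricalbin that tethers the endoplasmic reticulum to the plasma membrane, read -1.29 and -1.12 in the deletion and -0.08 and 0.00422 in the control, and fell by 1.17 ± 0.0992 (SE; adjusted p = 6.95e-05) on the log2 scale. It was the only call among 24 tether genes, whose median was -0.03. Over all features 2.68% were called, so a single call says little about the list.

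PDR5, the main multidrug efflux pump, read -0.28 and -0.32 against 0.67 and 0.57, and PDR15, a related pump taken after its value was seen, 0.07 and -0.24 against 0.89 and 0.69. They fell by 0.93 ± 0.134 (SE) and by 0.88 ± 0.132 (SE). Both pumps stood above the pool in the control, the calls of both were lost after control RNA centring, and that of PDR15 also without deletion array b.

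Of 26 alcohol, aldehyde and butanediol dehydrogenase genes 4 fell and 1 rose, the latter being ALD3, where 0.612% of all features fell and 2.07% rose. BDH2, a putative butanediol dehydrogenase, read -0.53 and -0.41 in the deletion and 0.67 and 0.57 in Eaf1 1:982, a decrease of 1.09 ± 0.0954 (SE; adjusted p = 8.20e-05) on the log2 scale. ADH3, mitochondrial alcohol dehydrogenase, fell by 0.84 ± 0.0928 (SE) and AAD3, a putative aryl-alcohol dehydrogenase, by 0.86 ± 0.0897 (SE). The calls of ADH3 and AAD3 were lost after control RNA centring and after quantile normalisation, and that of AAD3 also without deletion array a.

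YOL014W, a gene of unknown function, read -2.18 and -2.06 in the deletion and -0.59 and -0.46 in the control, a decrease of 1.60 ± 0.0904 (SE; adjusted p = 1.81e-05), and it stood below the pool in both strains. KEL2, a Kelch-repeat protein of cell fusion and polarity, fell by 1.11 ± 0.0840 (SE), ACB1, the acyl-CoA binding protein, by 1.06 ± 0.107 (SE), and VPS73, a protein of vacuolar sorting, by 1.04 ± 0.0592 (SE). AIM34, YGR201C, ZTA1 and TDA4 fell by 0.91 to 1.01 on the log2 scale. These decreases were called with each of the 4 arrays left out, but after control RNA centring the calls of AIM34, VPS73, YGR201C, ZTA1 and TDA4 were lost, and after quantile normalisation those of YGR201C, ZTA1 and TDA4.

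Of 145 ribosome biogenesis factors 86 were lower and 2 higher by the adjusted p alone, against 15.8% of all features lower, and the median was -0.28, while 1 passed the fold limit. BRX1, a large-subunit assembly factor, read -0.77 and -0.74 in the deletion and 0.05 and 0.14 in the control, a decrease of 0.85 ± 0.0540 (SE; adjusted p = 2.68e-05) whose call was lost after control RNA centring. BMS1, a GTPase of small-subunit assembly, differed by -0.66 ± 0.0695 (SE). Of 31 RNA polymerase I and III genes 18 were lower by the adjusted p alone, with a median of -0.22 and no call.

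The direction for growth genes depended on centring. After centring on the added control RNA the median of the biogenesis factors was -0.004 and that of the polymerase genes was 0.05, both below the 0.28 of all features. The 125 genes of cytosolic ribosomal proteins held no call, and their median was -0.06, or 0.21 on that scale. RPS3, the lowest of them at -0.80 ± 0.304 (SE; adjusted p = 0.0721), had a spot over 32768 on 4 arrays and did not pass the test.

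Of 39 mating and cell-type genes 4 rose and 1, the mating-type switching endonuclease gene HO, fell by 0.81 on the log2 scale. Over all features 2.07% rose and 0.612% fell. The list had no common direction, with a median of 0.05 and 24 positive differences. By the adjusted p alone 11 were higher and 8 lower, against 17.8% and 15.8% of all features. HO was named after its value was seen. MF(ALPHA)1, the main alpha-factor gene, read 0.96 and 1.22 in the deletion and 0.01 and 0.06 in Eaf1 1:982, a rise of 1.06 ± 0.142 (SE). MF(ALPHA)2, its minor copy, rose by 1.08 ± 0.132 (SE), PRM5, a gene of pheromone and cell integrity signalling, by 1.08 ± 0.0666 (SE), and MATALPHA1, the activator of alpha-specific genes, by 0.85 ± 0.0567 (SE). The calls of MF(ALPHA)2 and MATALPHA1 were lost after quantile normalisation. The spot of MF(ALPHA)1 passed 32768 on 3 arrays, and the alpha-factor genes are near copies whose probes may share signal.

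RIM4, an RNA-binding protein of meiosis that is normally held low in growing cells, read 2.15 and 1.92 in the deletion and 0.25 and 0.14 in the control. Its rise of 1.84 ± 0.0826 (SE; adjusted p = 7.44e-06) was the second highest, 3.58-fold. Of 37 early meiotic genes only DMC1, the meiotic recombinase, also rose, by 0.77 ± 0.0692 (SE), and SPO16, a protein of meiotic chromosome pairing, fell by 0.77 ± 0.0835 (SE), both close to the fold limit. After quantile normalisation the calls of both were lost. The call of DMC1 was lost without deletion array b or control array a, and that of SPO16 without deletion array a or control array b. That of DMC1 was also lost from the scanner intensities with normexp and with the median of gene spots set to 0. That of SPO16 was also lost from the print-tip loess intensities and after control RNA centring. The list median was 0.03.

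Some genes of biosynthetic pathways were called, where 2.07% of all features rose and 0.612% fell. GCV1 and GCV2, subunits of the glycine cleavage system, rose by 1.23 ± 0.0883 (SE) and 1.03 ± 0.0791 (SE), and URA4, dihydroorotase, fell by 0.80 ± 0.0567 (SE), among 32 purine, pyrimidine and one-carbon genes with a median of -0.08. INO1, inositol phosphate synthase, rose by 0.83 ± 0.115 (SE), a call lost without control array b. HIS4, of histidine synthesis, fell by 0.89 ± 0.127 (SE), a call lost without deletion array a, and RIB4, of riboflavin synthesis, by 0.89 ± 0.0724 (SE). The calls of URA4, HIS4 and RIB4 were lost after control RNA centring, and these and that of INO1 after quantile normalisation. That of HIS4 was also lost from the scanner intensities with normexp, and that of URA4 from the print-tip loess intensities. Of 33 methionine, cysteine and sulphate genes none was called, and the median was -0.19. By the adjusted p alone 13 were lower and none higher, against 15.8% and 17.8% of all features. MET17, the sulphhydrylase, differed by -0.68 ± 0.107 (SE).

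A group of reporters without a gene name added to the rises. Of 1062 such reporters 39 rose (3.67%), against 1.75% of named genes. The 31 that rose by more than 1 on the log2 scale, from 1.02 to 1.82, had log2 intensities from 7.66 to 13.1, with a median of 12.6 against 9.07 for all features. All 31 count among the 80 rises of more than 2-fold. Their medians were 1.45 and 1.17 on the deletion arrays and 0.01 and -0.41 on the Eaf1 1:982 arrays, so control array b stood below control array a. The highest was reporter SCAB003340, at 1.96 and 1.30 against 0.08 and -0.46, a rise of 1.82 ± 0.229 (SE; adjusted p = 0.000482).

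Several named Gag frames of the Ty1 retrotransposon, a mobile element kept in many near-identical copies, also rose. YDR170W-A, such a frame, read 1.82 and 1.08 in the deletion and 0.10 and -0.45 in the control, a rise of 1.63 ± 0.267 (SE; adjusted p = 0.00185) that was not called from the scanner intensities. YPR158W-A, YNL284C-A and YDR210C-C, taken after their values were seen, rose by 1.44 ± 0.148 (SE), 1.21 ± 0.177 (SE) and 1.19 ± 0.109 (SE). Near-identical copies cannot be told apart on these probes, so the rises cannot be assigned to single elements.

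**Figure D4:**
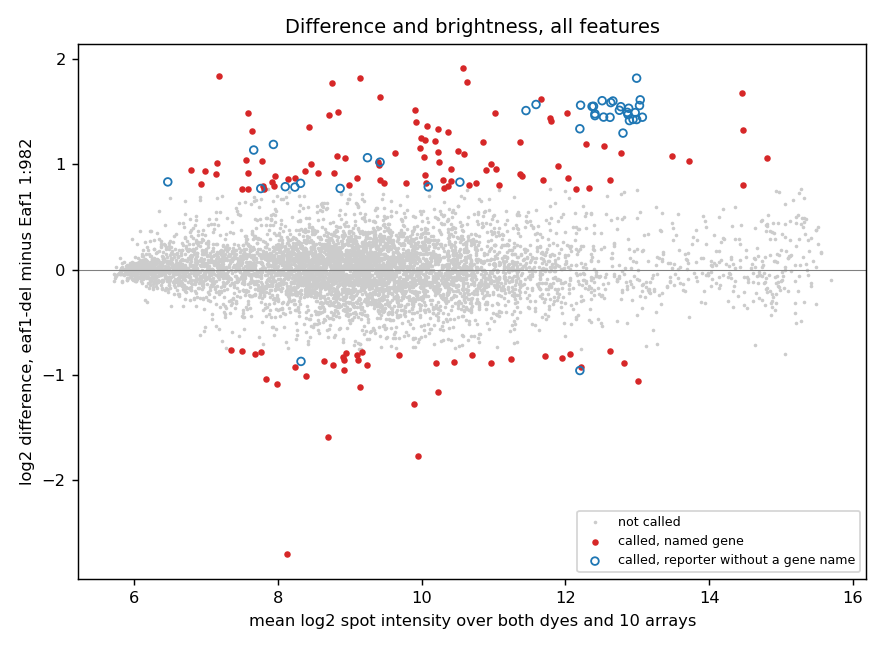
Log2 difference, eaf1-del minus Eaf1 1:982 (vertical axis), against the mean log2 spot intensity over both dyes and 10 arrays (horizontal axis) for all 6377 features, with called named genes in red and called reporters without a name as open blue circles. Most reporters without a name that rose over 1 sit in a tight bright cluster around a log2 intensity of 12.6.

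The differences were spread along the genome. Median differences per nuclear chromosome ran from -0.02 on XV to 0.06 on XII, with 0.43 for the mitochondrial genome. Of 221 genes nearest a chromosome end 5 rose and 2 fell, beside 2.07% and 0.612% of all features, and their median was 0.03. Of 17 genes of the subtelomeric COS, PAU and YRF1 families none was called, with COS10 at -0.68 ± 0.0750 (SE) and COS5 at 0.38 ± 0.0551 (SE).

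The deletion was also set against the Epl1 truncations, which act on the same complex and have their own tagged control, so that the comparisons share no strain arrays. Epl1 1:380 against tagged Epl1 gave 243 calls (3.81%), with 176 rises (2.76%) and 67 falls (1.05%). Of these, 87 rises were shared, which is 65.9% of the rises of the deletion and 49.4% of those of the truncation. Falls were shared by 12 features, 30.8% and 17.9% of the respective lists, and no feature was called in opposite directions. Epl1 1:485 gave 186 calls (2.92%), with 2.23% of all features rising and 0.69% falling, and shared 77 rises, 58.3% and 54.2% of the lists, and 12 falls, 30.8% and 27.3%. Part of the shared rises came from the 31 bright reporters without a gene name. Of these, 28 were called in Epl1 1:380 and 25 in Epl1 1:485, with medians of 0.99 and 0.90. RIM4 differed by 1.93 in Epl1 1:380 and 1.84 in Epl1 1:485, beside 1.84 in the deletion, and ENB1 by -2.02 in Epl1 1:380, beside -1.77.

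The effect of the deletion minus the effect of Epl1 1:380 was itself tested across all features, and 74 differed (1.16%), 27 with a higher value for the deletion (0.423%) and 47 with a lower one (0.737%). From the scanner intensities with normexp 28 differed. Among the 19 mitochondrial frames 5 had a higher effect in the deletion and none a lower one. These were ATP8 and the COX1 intron frames AI1, AI2, AI3 and AI5_ALPHA. AI1 gave 1.31 in the deletion and -0.10 in the truncation, a difference of effects of 1.42 with an adjusted p of 0.00448. AI2 gave 1.77 and 0.60, a difference of 1.17 (adjusted p = 0.00620) that was not called from the scanner intensities. The mitochondrial list had no call in Epl1 1:380 and a median of 0.07. By the adjusted p alone, the intron frames AI2, AI3, AI4, AI5_ALPHA and AI5_BETA were also higher in Epl1 1:380. They differed there by 0.60, 0.37, 0.51, 0.70 and 0.48, under the fold limit, and AI1 did not pass.

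Among the 47 nuclear respiratory genes 2 had a higher effect in the deletion, beside 0.423% of all features. The list had 1 rise in Epl1 1:380 with a median of 0.11, against 7 and 0.50 in the deletion. INH1 gave 1.11 and 0.04, a difference of effects of 1.07 (adjusted p = 0.00383). ATP2 gave 1.11 and 0.47, a difference of 0.64 (adjusted p = 0.0187) that was under the fold limit. HAP4 gave 0.80 and 0.75, a difference of 0.05 (adjusted p = 0.830). Mitochondrial ribosomal protein genes had medians of 0.25 in the deletion and 0.38 in Epl1 1:380. None of the 66 was called in the test of the difference, which says little where 1.16% of all features were.

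Among the 72 Msn2 and Msn4 targets 14 had a lower effect in the deletion and none a higher one, beside 0.737% and 0.423% of all features. Of these targets 23 rose in the deletion and 40 in Epl1 1:380, beside 2.07% and 2.76% of all features. HSP26 rose by 1.40 in the deletion and by 3.76 in Epl1 1:380, a difference of effects of -2.36 (adjusted p = 0.000830), the second lowest after EAF1. ARG3, ornithine carbamoyltransferase, rose by 0.83 and by 2.40, a difference of -1.57 (adjusted p = 0.000830), and its call in the deletion was lost without deletion array b or control array a. BDH2 fell by 1.09 on the log2 scale in the deletion and gave 0.51 in the truncation, a difference of -1.60 (adjusted p = 0.000830).

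BIO4, an enzyme of biotin synthesis, had the highest difference of effects. It read 1.53 and 1.43 in the deletion and 0.56 and 0.62 in Eaf1 1:982, a rise of 0.89 ± 0.162 (SE; adjusted p = 0.00318), and gave -0.69 in Epl1 1:380, so that the effects differed by 1.58 (adjusted p = 0.00678). After quantile normalisation BIO4 differed by -0.03 between the deletion and Eaf1 1:982, so its direction in the deletion depended on the scaling. PYC1, pyruvate carboxylase, another gene of the biotin list since the enzyme carries biotin, read 1.01 and 1.03 in the deletion and 1.61 and 1.30 in the control. It stood above the pool in both strains and differed by -0.43 ± 0.0996 (SE).

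**Figure D5:**
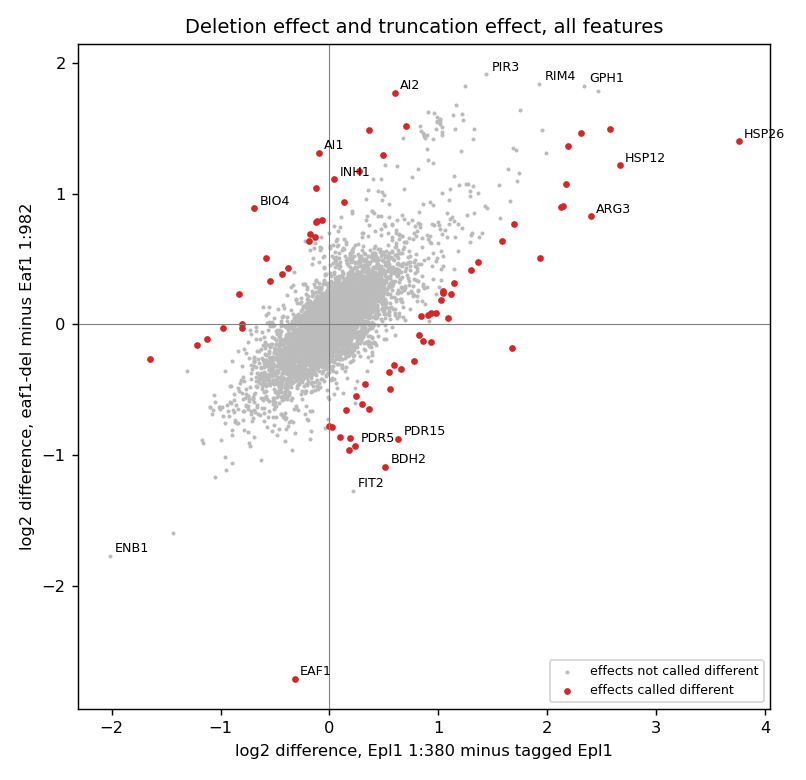
Log2 difference eaf1-del minus Eaf1 1:982 (vertical axis) against Epl1 1:380 minus tagged Epl1 (horizontal axis) for all 6377 features, with the 74 features whose effects were called different in red. RIM4 and ENB1 lie near the diagonal, AI1, AI2 and INH1 above it, and HSP26, ARG3 and BDH2 below it.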

How the data were processed

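RNA of 5 yeast strains was compared with a reference pool on 10 two-colour oligonucleotide arrays. The authors deposited a matrix of log2 Cy5/Cy3 values. Per their protocol text they subtracted no background, fitted print-tip loess (span 0.4) to the gene probes and then corrected each gene's dye bias. Spots over 32768 were left out of their curve. The deposited scanner files hold intensity values for 15552 spots, of which 2776 are controls. Per the series' design text, added control RNA showed no global change.

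Signs of the a arrays were turned so that each ratio reads strain over pool, and each gene's spots were averaged. Of 5315 names, 5255 matched a symbol and 58 a synonym of the R64 gene table, and 2 matched none. No genome build is named, so no coordinates are given, and promoter sequences were not analysed here. A model with 1 coefficient per strain was fitted over all 10 arrays with limma 3.58.1 (lmFit, eBayes) in R 4.3.3, with 5 residual and 4.00 prior degrees of freedom, and p-values were adjusted over all 6377 features. Figures were drawn in Python 3.11.15. On simulated data with 200 changed features of 6377 for this comparison, 194 were called, with 1 unchanged feature called. All the added changes were larger than the fold limit, and the simulated noise was independent between arrays, unlike that of the real arrays. The simulation checks the fit and does not give the rate of missed or false calls here.

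Arrays with the same letter share a dye orientation, and their b minus a deviations correlated at 0.294 to 0.563 between the deletion and the other strains. The letter as a replicate block was an alternative, beside normexp (offset 50) with loess and print-tip loess on the scanner intensities, median, control RNA (4 of 14 control reporters) and quantile scaling, dim features left out, the brightest reporter, only 4 arrays, trended eBayes, other limits and each array left out. Normexp with the replicate block was added after seeing the data.

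Named genes are the NuA4 subunits, the 15 largest called rises and falls, and up to 4 called members of each of 41 lists, or the 2 largest differences where fewer than 2 were called. The genes, lists and tests were chosen with earlier results of these data known. No list was tested as a set.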

Additional observations from a re-analysis of the deposited data

Results flagged for a closer look

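In 19 named genes or reporters, the effect of the eaf1 deletion and that of Epl1 1:380, each against its own tagged control, differed in the fit across all features (limma, adjusted p under 0.05, fold over 1.7). All 19 differences were also called with the replicate block, and 10 from the scanner intensities. Values are deletion effect minus truncation effect on the log2 scale.

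A higher effect in the deletion was found for BIO4 (1.58), AI1 (1.42), AI2 (1.17), AI3 (1.12), INH1 (1.07) and AI5_ALPHA (0.82). A lower effect was found for the stress genes HSP26 (-2.36), SIP18 (-1.24), MSC1 (-1.23), PGM2 (-1.10), ALD3 (-1.08) and DDR48 (-0.77). HSP26, SIP18, MSC1, PGM2 and ALD3 rose in both mutants, and DDR48 fell in the deletion.

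BDH2 (-1.60), ARG3 (-1.57), PDR15 (-1.51), PDR5 (-1.16), TIS11 (-1.05), AAD3 (-0.96) and the reporter SCAB004696, which has no gene name here (-1.14), also had a lower effect in the deletion. Apart from ARG3, which rose in both, these fell in the deletion. From the scanner intensities, TIS11, AAD3 and SCAB004696 were not called, nor were SIP18, PGM2, ALD3, AI2, AI3 and AI5_ALPHA.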

How the results depend on the processing

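EAF1 kept its direction and its call under every alternative run, with differences from -2.80 to -2.43. Centring on added control RNA gave 329 called features, 321 higher and 8 lower, quantile normalisation gave 74 higher, and dropping the fold limit gave 2145, of which 1135 were higher and 1010 lower. For BIO4, quantile normalisation turned the direction, at -0.0337. From the scanner intensities 28 features differed between the effects of the deletion and Epl1 1:380. With the replicate block the count of calls was 172 in place of 171, and the differing effects numbered 76, and the block ended no call. Leaving out each of the 4 arrays gave 162 to 196 calls, 124 to 147 higher and 36 to 52 lower, EAF1 differences of -2.80 to -2.61, and 58 to 94 differing effects.

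Of 76 named called features, 67 kept their call whichever of the 4 arrays was left out, and AAD3, ARG3, DDR48, DMC1, FIT2, HIS4, INO1, PDR15 and SPO16 did not. The call held from normexp intensities for 72, after control RNA centring for 59, after quantile normalisation for 48, and under median, control RNA and quantile scaling alike for 40. The control RNA itself differed between the strains by -0.47 on the a arrays and by -0.08 on the b arrays, from 4 reporters. The cause of these changes was not tested. Strains differed in the spread of their ratios, with SDs from 0.151 to 0.363 on the 4 arrays, which quantile normalisation sets equal. With 2 arrays per strain, and signals near background for EAF1 in the deletion, small differences and the depth of the EAF1 decrease are poorly bounded.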

Other observations

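Other gene groups showed few or no called differences between the eaf1 deletion and Eaf1 1:982. Over all features 2.68% were called, so few or no calls in lists of this size do not set them apart. Of 36 proteasome genes none was called, with a median of -0.03, and PUP1, a core subunit, differed by 0.35 ± 0.0568 (SE). Of 33 autophagy genes none was called, with a median of 0.005, and the lowest was LAP4, the vacuolar aminopeptidase delivered by the Cvt pathway, at -0.57 ± 0.0811 (SE), followed by ATG19, its receptor, at -0.50 ± 0.0733 (SE). Of 52 ergosterol and phospholipid genes INO1 alone was called, and CDS1, which makes CDP-diacylglycerol, differed by -0.66 ± 0.0609 (SE). Of 37 translation factor genes none was called, with YEF3, elongation factor 3, at 0.58 ± 0.117 (SE) and FUN12, initiation factor 5B, at -0.52 ± 0.0607 (SE).

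Of 29 genes on the phosphate regulon list 2 rose, where 2.07% of all features did. PHM8, a nucleotide phosphatase, rose by 1.01 ± 0.107 (SE). SIP18, a desiccation protein also named above among the stress genes, rose by 0.91 ± 0.133 (SE). Both calls were lost after quantile normalisation, and that of SIP18 also from the print-tip loess intensities. Of 20 thiamine and vitamin B6 genes none was called, with THI11 at 0.62 ± 0.0718 (SE), one of several near-identical copies that cannot be told apart. Of 10 genes used as strain construction markers none was called, with TRP1 at -0.52 ± 0.0805 (SE). Of 17 arginine genes ARG3 rose, and ARG8 differed by 0.55 ± 0.0894 (SE).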
